A study of Homo sapiens with 6 samples.

Results

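Autophagy delivers cell contents to the lysosome, and 10 of its genes were followed here in an anaplastic thyroid cancer cell line treated with sodium selenite (SS). They were picked by symbol and are SQSTM1, MAP1LC3B, GABARAPL1, GABARAPL2, ULK1, WIPI1, BECN1, ATG5, ATG7 and TFEB. These are 10 of the 17687 genes in the expression table, and all 10 were among the 14005 genes that had enough reads to be tested. The cell line was KHM-5M, derived from an anaplastic thyroid carcinoma and described as BRAF wild type. RNA was sequenced from control cells, cells given SS, and cells given SS together with the antioxidant N-acetylcysteine (SS+NAC), with 2 libraries per group. What the control cells were given was not stated for the sequencing. The selenite dose and the length of treatment of the sequenced cells were not given, and there was no group with NAC alone. A single cell line was sequenced, so the values describe KHM-5M cells only.

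In macroautophagy a double membrane grows around cargo, closes into an autophagosome and fuses with the lysosome. The ULK1 kinase complex starts the process, the BECN1 lipid kinase complex marks the membrane with phosphatidylinositol 3-phosphate (PI3P), WIPI proteins read that mark, and ATG7 and ATG5 work in the conjugation systems that attach LC3 and GABARAP proteins to the membrane. SQSTM1 (p62) carries ubiquitin-bound cargo to LC3, is itself degraded with that cargo, and also binds KEAP1, the inhibitor of the antioxidant factor NRF2, while TFEB switches on lysosomal and autophagy genes. Since several of these proteins are consumed or modified during autophagy, a transcript level says nothing by itself of how much autophagy takes place.

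The control libraries held 17645545 and 22016655 counted reads, the SS libraries 23493415 and 23810056, and the SS+NAC libraries 23682740 and 22617180. Between 16080 and 16476 genes had a rounded count above 0 in each library. Of 7 thyroid markers PAX8, a thyroid transcription factor, was the most abundant and averaged 267 CPM over the 6 libraries, CPM being counts scaled to a common library size. The other thyroid markers were low, with 1.71 CPM for FOXE1, 1.11 CPM for the hormone precursor TG, 1.09 CPM for the iodide transporter SLC5A5, 0.153 CPM for NKX2-1 and 0.00692 CPM for DIO1. TSHR was absent from the expression table. The keratin KRT8 averaged 1162 CPM and the mesenchymal filament VIM 6237 CPM, while the epithelial adhesion molecule CDH1 was at 0.515 CPM. Of 5 leukocyte markers CD68, a lysosomal protein of macrophages that other cells also make, was the most abundant at 87.0 CPM, with PTPRC at 0.487 CPM and CD3E at 0.00754 CPM. Of 4 endothelial markers KDR was the most abundant at 1.06 CPM, with CDH5 at 0.0735 CPM. Summed over 6 epithelial markers, KRT8 the most abundant, the level was 1766 and 1847 CPM in control, 2248 and 2729 CPM with SS, and 1748 and 1377 CPM with SS+NAC, and its part in the results was not tested. The sum over 4 mesenchymal markers, VIM the most abundant, was 10368 and 10802 CPM in control, 11642 and 11698 CPM with SS, and 11716 and 12293 CPM with SS+NAC. Of these markers only VIM was higher with SS than in control, at a log2 fold change of 0.40, and the median of the 4 was -0.27. Over 4 fibroblast markers the sum was 647 and 660.2 CPM, 601.8 and 603 CPM, and 809 and 709 CPM, and the part of these markers was not tested either. COL1A1, a collagen of fibroblasts that mesenchymal-like tumour cells also make, was at 649.7 CPM, with the fibroblast markers PDGFRB at 15.01 CPM, LUM at 6.84 CPM and DCN at 0.110 CPM.

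In control cells the 10 genes spanned a wide range of transcript levels. On the scale of TPM, which is corrected for transcript length and so allows levels of different genes to be compared, SQSTM1 stood highest at 330.7 ± 4.17 TPM (mean ± SD, n = 2, as for every such value below). It was followed by MAP1LC3B at 94.5 ± 3.96, GABARAPL2 at 85.7 ± 4.17 and BECN1 at 84.2 ± 3.95 TPM. ATG7 at 29.3 ± 1.5, ATG5 at 28.4 ± 1.63, WIPI1 at 21.9 ± 2.64 and GABARAPL1 at 16.3 ± 0.990 TPM came next. The lowest levels were those of ULK1 at 9.72 ± 0.417 and TFEB at 9.63 ± 0.523 TPM. Within this order GABARAPL2 and BECN1, ATG7 and ATG5, and ULK1 and TFEB did not differ beyond their spread. SQSTM1 was also the highest of the 10 in the other groups, at 368 ± 25.8 TPM with SS and 630 ± 53.1 TPM with SS+NAC.

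**Figure D1:**
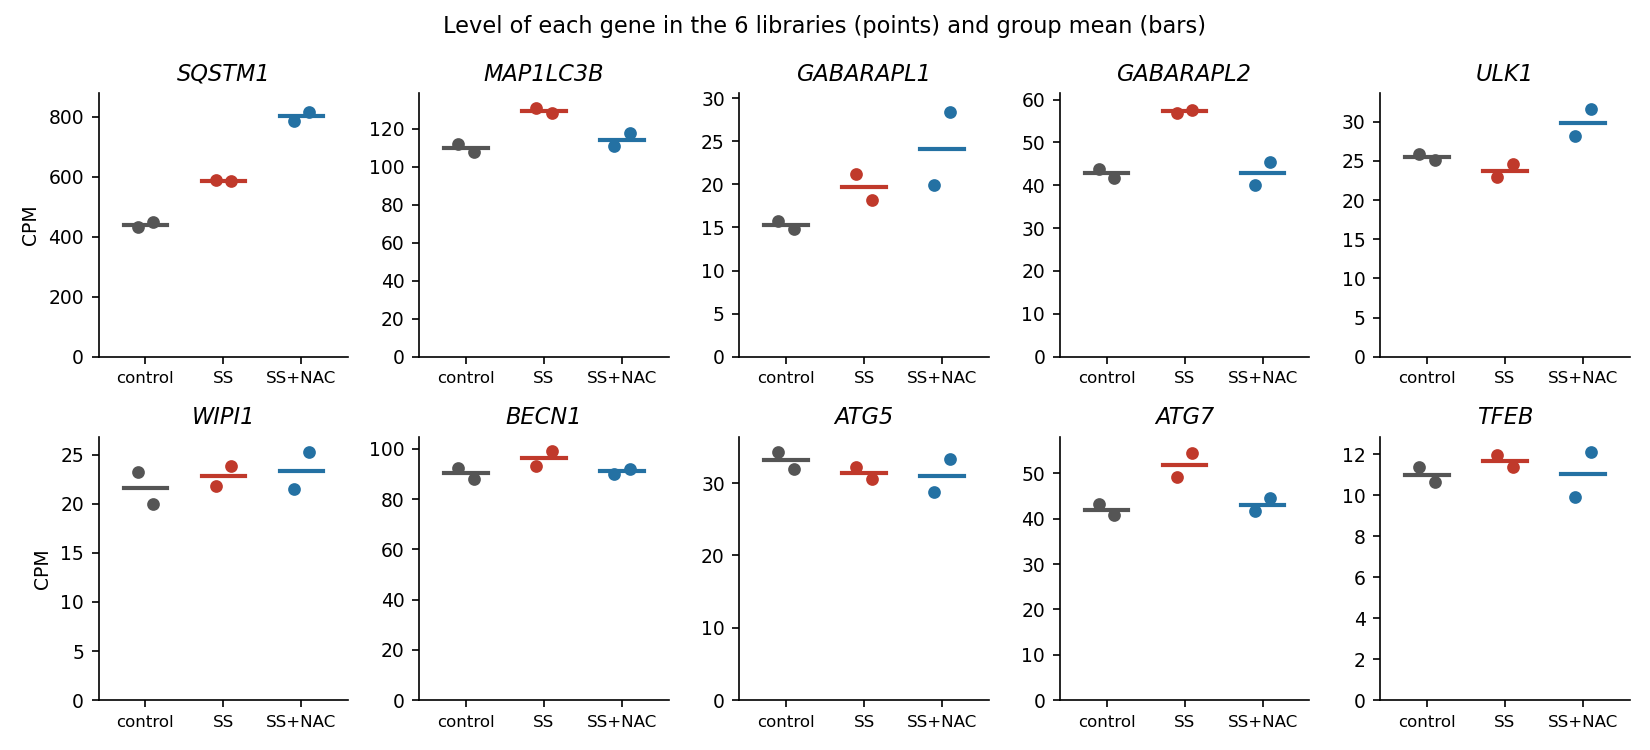
Level of each of the 10 genes in CPM (counts scaled to a common library size, vertical axis from 0) in the 2 control, 2 SS and 2 SS+NAC libraries, with points for libraries and bars for group means. SQSTM1 steps up from 439.6 CPM in control to 586 CPM with SS and 800.6 CPM with SS+NAC, GABARAPL2 on this scale is highest in the SS libraries, and WIPI1, ATG5 and TFEB overlap between all groups.

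The comparison of SS with control asks which transcripts selenite treatment altered. Of the 10 genes, SQSTM1, MAP1LC3B, GABARAPL2 and ATG7 rose and 0 fell, by edgeR's quasi-likelihood test with a gene called at a Benjamini-Hochberg adjusted p of at most 0.05. At an unadjusted p under 0.05 there were 5, the other being GABARAPL1, and by the DESeq2 Wald test again 4 rose and 0 fell. Over all tested genes 40.0% were called, 18.6% higher and 21.4% lower, so 4 called genes of 10 is the share seen in the whole table and is not a result about autophagy genes. The median log2 fold change was 0.16 for the 10 genes and 0.00 for all tested genes, and with the length offset described next it was 0.05 for the 10. By limma on log2 TPM without centring, where the median of all genes was -0.20, 0 were called higher and 1 lower, and on centred TPM, in which the median gene of every library was set to the same log2 level, 6 higher and 0 lower. The share of all genes called on TPM is not given here, so these TPM counts are not a result about autophagy genes. These are bulk RNA values, in which fewer cells of a kind and less RNA per cell cannot be told apart. Of the 6 epithelial markers KRT8, KRT18 and KRT7 rose with SS, none of them called with the length offset, by which the median of the 6 went from 0.37 to 0.15, and EPCAM was at -0.22, not called. Of the 4 mesenchymal markers VIM rose by 0.40, ZEB1 fell by 0.95 and CDH2 by 0.31, and FN1, at -0.23, was not called. Only ZEB1 of these was called with the offset, at -0.57. With a Bonferroni adjustment 0 of the 10 were called. The count also changed with 1 library left out, which leaves a group of 1, and the share of all genes called there is not given.

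Those calls came from a comparison in which fold change followed transcript length across the whole table. Over 14005 genes, which are not independent replicates, the Spearman correlation of log2 fold change with effective transcript length was -0.68 for SS against control. The shortest eighth of the genes, from 183 to 1408 bases, had a median log2 fold change of 0.46, with 1215 genes higher and 19 lower. The longest eighth, from 6088 bases up, had a median of -0.46, with 29 genes higher and 1109 lower. Many fold changes below are therefore given also after a length offset, a smooth curve of signal on length that was taken out of every library. With that offset the correlation was -0.00 and 9.23% of all genes were called in SS against control, and 2 of the 10 genes, SQSTM1 and ATG7, were among them. What made fold change move with length was not tested.

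**Figure D2:**
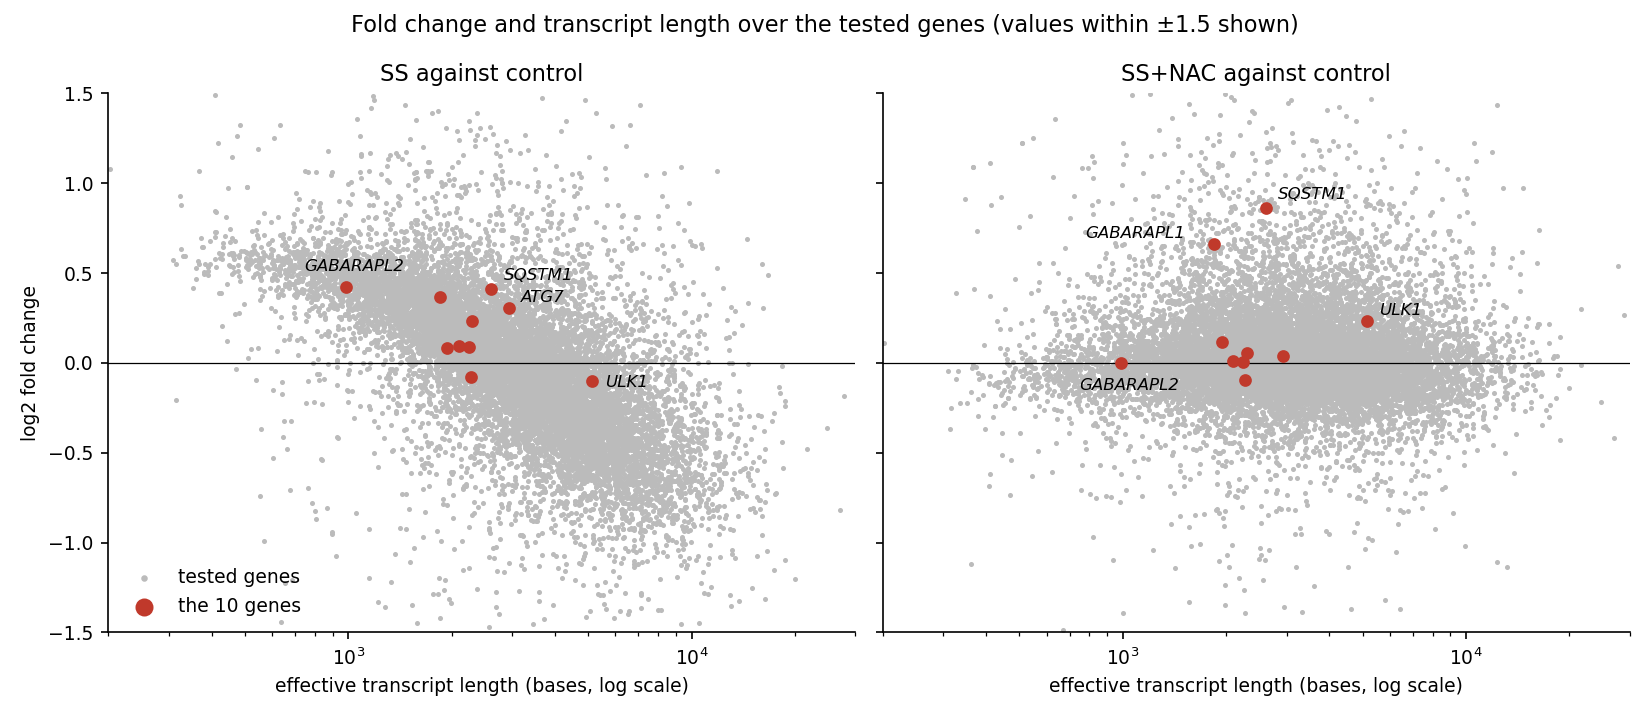
Log2 fold change (vertical axis) against effective transcript length in bases (log scale) for the tested genes (grey; values within 1.5 of 0) and the 10 autophagy genes (red), for SS against control on the left and SS+NAC against control on the right. The left cloud slopes down, with a Spearman correlation of -0.68, and the right one is flat at -0.04. SQSTM1 lies above the median of genes of similar length in both.

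SQSTM1, the cargo receptor p62, lies on chromosome 5 at positions 179806398 to 179838078 of the plus strand (GRCh38, GENCODE 29), with 16 exons when those of all its transcripts are merged. Because its level was called different in every comparison, one of its promoters is printed here, that of the most downstream of 3 starts, from chr5:179820655-179820954 on the plus strand. The promoter of MAP1LC3B, from chr16:87392086-87392385 on the plus strand, is printed beside it since it alone of the 10 genes held a match to a searched motif. Both come from RefSeq on GRCh38.p14 and run 5′ to 3′ from 250 bases before to 50 bases after the start, in lower case, with capitals marking the letters of that match.
SQSTM1: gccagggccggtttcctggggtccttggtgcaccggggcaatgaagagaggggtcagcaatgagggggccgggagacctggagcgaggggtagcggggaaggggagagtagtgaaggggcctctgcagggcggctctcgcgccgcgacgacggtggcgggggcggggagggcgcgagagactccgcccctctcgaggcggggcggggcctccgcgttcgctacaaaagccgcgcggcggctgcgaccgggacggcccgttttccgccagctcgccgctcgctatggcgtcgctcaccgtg
MAP1LC3B: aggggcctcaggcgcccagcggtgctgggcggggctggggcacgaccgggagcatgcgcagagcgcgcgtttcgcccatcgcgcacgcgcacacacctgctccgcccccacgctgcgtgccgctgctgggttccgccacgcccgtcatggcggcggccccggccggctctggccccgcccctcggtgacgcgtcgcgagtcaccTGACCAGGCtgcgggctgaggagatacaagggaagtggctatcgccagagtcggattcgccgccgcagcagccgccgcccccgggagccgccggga
The motifs were searched on both strands of 35116 promoters of 300 bases, and all 10 genes had an entry, with 15 promoters between them. The antioxidant response element, the site type bound by NRF2, was written TGACNNNGC and occurred in 13.3% of all promoters. It was found in 1 of the 15, in MAP1LC3B with its first base at -46 from the start, and in 16.1% of 93 promoters of the wider autophagy gene list. The E-box CACGTG, core of the element bound by TFEB, was in 7.26% of all promoters, 0 of the 15 and 11.8% of the 93. The longer form TCACGTGA, which contains it, was in 0.98% of all, 0 of the 15 and 5.38% of the 93. The C/EBP-ATF letters TGATGNAA were in 3.62% of all, 0 of the 15 and 2.15% of the 93. A match describes letters and is neither a shown site nor a cause, and no match says only that the letters are absent from this window. The SQSTM1 window printed was 73% G and C and that of MAP1LC3B 75.7%, with a median of 58.7% over all promoters.

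SQSTM1 read 431 and 449 CPM in the control libraries, 588 and 584 CPM with SS, and 785 and 816 CPM with SS+NAC. The 3 groups did not overlap, with control lowest, SS between and SS+NAC highest, and replicates lay close together beside the steps between groups. Its mean was 439.6 ± 12.8 CPM in control, 586 ± 2.48 with SS and 800.6 ± 21.7 with SS+NAC. With SS it rose 1.33-fold over control (log2 fold change 0.41, SE 0.0746, edgeR adjusted p = 0.00182). Its length of 2607 bases lies near the middle of the range, and with the length offset the log2 fold change was 0.36 and was called. The comparison with control held under 16 of 18 alternative settings. The exceptions were a Bonferroni adjustment and the deposited TPM without centring, which gave 0.15 for SQSTM1 where the median of all genes was -0.20.

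NAC added to SS asks what the antioxidant changes in selenite-treated cells, and SQSTM1 rose further in that comparison. It was 1.37-fold higher in SS+NAC than in SS (log2 fold change 0.45, SE 0.0744, edgeR adjusted p = 0.00109). With the length offset the value was 0.49 and was called. Over control, SS+NAC cells had 1.82-fold more SQSTM1 (log2 fold change 0.86, SE 0.0749, edgeR adjusted p = 0.000165), and 0.85 with the length offset. That last comparison was called under all 18 alternatives, with log2 fold changes from 0.83 to 0.92 and adjusted p from 5.42e-26 to 0.00772. The step from SS to SS+NAC was called under 17 of 18, the exception being Bonferroni, with log2 fold changes from 0.33 to 0.77 over the 18. The 3 comparisons share libraries with one another, so their values stand side by side and do not support each other.

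Annotated genes overlap SQSTM1 on the other strand. Its exons share 105 bases with MGAT4B and 1582 bases with MRNIP, both on the opposite strand. MGAT4B had counts equal to 41.3% of those of SQSTM1 and a log2 fold change of 0.09 in SS against control (edgeR adjusted p = 0.370), and MRNIP 0.415% and 0.12 (adjusted p = 0.696). Neither was called in SS+NAC against control, at 0.12 and 0.24. Whether the counting used the strand of the reads was not given, so reads of the shared bases could not be assigned with certainty. The expected counts of SQSTM1, MAP1LC3B, WIPI1, BECN1 and ATG7, the 5 genes that share exons with another protein-coding gene of the table, were fractional in 6 of 6 libraries, and those of the other 5 genes in 0 of 6.

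Among the ATG8 proteins, which coat the growing membrane and bind receptors, MAP1LC3B encodes the widely used autophagosome marker LC3B and lies on chromosome 16 at 87383995 to 87404779, plus strand. It read 112 and 108 CPM in control, 131 and 128 CPM with SS, and 111 and 118 CPM with SS+NAC. Both SS libraries were above both control libraries and both SS+NAC libraries, and SS+NAC overlapped control. MAP1LC3B rose 1.18-fold with SS (log2 fold change 0.24, SE 0.0720, edgeR adjusted p = 0.0239). This call was lost when any one of the 4 compared libraries was left out, with 0.26 without control replicate 1, 0.24 without control replicate 2, 0.22 without SS replicate 1 and 0.25 without SS replicate 2. It was also lost with the replicate number as a block, at 0.24, and with the length offset, at 0.12, and on TPM without centring the sign turned, to -0.04. From SS to SS+NAC the difference was -0.18 and was not called (edgeR adjusted p = 0.0627), though it was called lower in 4 alternatives: by the DESeq2 Wald test and with DESeq2 size factors, both at -0.21, with at least 10 counts in every library, at -0.20, and on centred TPM, at -0.29. With the length offset it was -0.08, not called. Against control the SS+NAC value was 0.05 (adjusted p = 0.754). Its exons share 150 bases with FBXO31 on the opposite strand, which had 22.1% of its counts and a log2 fold change of -0.05 with SS, and the near-identical gene MAP1LC3B2 had 1.09% of its counts.

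GABARAPL2 (GATE-16), another ATG8 protein, lies on chromosome 16 at 75566351 to 75577881, plus strand. Its level was 43.9 and 41.8 CPM in control, 57.0 and 57.6 CPM with SS, and 40.0 and 45.5 CPM with SS+NAC. The SS libraries stood apart above the rest, and control and SS+NAC overlapped. It rose 1.34-fold with SS (log2 fold change 0.42, SE 0.0836, edgeR adjusted p = 0.00302), fell by 0.42 on the log2 scale from SS to SS+NAC (SE 0.0827, adjusted p = 0.00256) and in SS+NAC against control differed by -0.00 (adjusted p = 0.994). At 985 bases GABARAPL2 is the shortest of the 10, in the shortest eighth of the genes. With the length offset it was not called, with -0.01 in SS against control and 0.02 in SS+NAC against SS, both of the opposite sign. On TPM without centring it was not called either, at 0.14 and -0.09. On the per-length TPM scale its group means were 85.7 ± 4.17, 94.6 ± 5.59 and 89.2 ± 12.4.

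GABARAPL1, on chromosome 12 at 10212458 to 10223130, plus strand, is the third ATG8 gene of the 10. It read 15.7 and 14.8 CPM in control, 21.2 and 18.1 CPM with SS, and 19.9 and 28.4 CPM with SS+NAC. Both treated groups lay above control, but the SS+NAC libraries were far apart, with an SD of 6.04 around a mean of 24.2 CPM, and overlapped SS. GABARAPL1 was not called, at 0.37 in SS against control (SE 0.160, edgeR adjusted p = 0.0899), 0.29 in SS+NAC against SS (adjusted p = 0.145) and 0.66, or 1.58-fold, in SS+NAC against control (SE 0.157, adjusted p = 0.0645). The values with the length offset were 0.16, 0.49 and 0.64 in the same order, none called. Without SS+NAC replicate 1 it was called in all 3 comparisons, at 0.37, 0.53 and 0.90. Without SS+NAC replicate 2 it was called in SS against control, at 0.37, and not in the others, at 0.02 over SS and 0.38 over control. SS against control was also called with the compared libraries only, at 0.36, and on centred TPM, at 0.46, and SS+NAC against SS on TPM without centring, at 0.59, where the median of all genes was 0.27. The DESeq2 Wald test and counts thinned to the smallest library called it in SS+NAC against control, at 0.64 and 0.71.

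ATG7 is the E1-like enzyme that activates both ATG12 and the ATG8 proteins for conjugation, and lies on chromosome 3 at 11272309 to 11557665, plus strand. It was at 43.2 and 40.8 CPM in control, 49.1 and 54.6 CPM with SS, and 41.7 and 44.5 CPM with SS+NAC. The SS libraries were above all others, and control and SS+NAC overlapped. ATG7 rose 1.24-fold with SS (log2 fold change 0.30, SE 0.0836, edgeR adjusted p = 0.0150) and fell by 0.27 on the log2 scale from SS to SS+NAC (SE 0.0826, adjusted p = 0.0239). Against control it differed in SS+NAC cells by 0.04 (adjusted p = 0.867). Unlike GABARAPL2 it kept its size and its calls with the length offset, at 0.31 and -0.29, while on TPM without centring the signs turned, to -0.06 and 0.11, and with both the offset and the replicate block the calls were lost, at 0.31 and -0.29. The ATG7 calls were lost in some fits with 1 library left out. Such fits leave a group of 1 and less power, so a lost call does not show that 1 library decided it. The call with SS was lost without control replicate 1 (0.34), control replicate 2 (0.29) or SS replicate 2 (0.22). That from SS to SS+NAC was lost without SS replicate 2 (-0.19) or SS+NAC replicate 1 (-0.22). Its exons share 1596 bases with VGLL4 on the opposite strand, which had 59.3% of its counts and a log2 fold change of -0.23 in SS against control (adjusted p = 0.0525).

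ATG5, which forms with ATG12 the conjugate that helps attach LC3 to lipid, lies on chromosome 6 at 106045423 to 106325791, minus strand. Its 6 libraries ranged from 28.8 to 34.4 CPM and every pair of groups overlapped. It was not called, with log2 fold changes of -0.08 (edgeR adjusted p = 0.546) in SS against control, -0.02 (adjusted p = 0.896) in SS+NAC against SS and -0.09 (adjusted p = 0.652) in SS+NAC against control. The offset made these -0.20, 0.09, of the opposite sign, and -0.11, none called. On TPM without centring ATG5 was called lower with SS, at -0.31, where the median of all genes was -0.20, and on centred TPM its sign turned, to 0.07. It was called on TPM without centring from SS to SS+NAC with the sign turned, at 0.30, where the median of all genes was 0.27.

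Of the genes that start and mark the membrane, ULK1 encodes the initiating kinase and lies on chromosome 12 at 131894651 to 131923167, plus strand. It read 25.9 and 25.1 CPM in control, 22.9 and 24.6 CPM with SS, and 28.2 and 31.6 CPM with SS+NAC. The order was SS lowest and SS+NAC highest, without overlap. ULK1 was not called in SS against control, at -0.10 (edgeR adjusted p = 0.417), or in SS+NAC against control, at 0.23 (adjusted p = 0.244), and the sign for SS turned with the length offset, to 0.20, and on centred TPM, to 0.06. From SS to SS+NAC it rose 1.26-fold (log2 fold change 0.33, SE 0.0899, adjusted p = 0.0131), a call lost without SS replicate 1 (0.28), without SS+NAC replicate 2 (0.25), by the DESeq2 Wald test (0.31), on centred TPM (0.14) and with the length offset (0.04). ULK1, at 5137 bases, is the longest of the 10.

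BECN1 (Beclin 1), the scaffold of the class III PI3-kinase complex, lies on chromosome 17 at 42810134 to 42833350, minus strand, and WIPI1, a PI3P-binding protein, on chromosome 17 at 68420948 to 68457513, minus strand. BECN1 ranged from 88.2 to 99.2 CPM over the 6 libraries and was not called, with 0.09 (edgeR adjusted p = 0.345) in SS against control, -0.08 (adjusted p = 0.402) in SS+NAC against SS and 0.01 (adjusted p = 0.958) in SS+NAC against control. Its SS libraries, at 93.3 and 99.2 CPM, lay just above the others, and it was called higher with SS on centred TPM, at 0.21. On TPM without centring it was called from SS to SS+NAC with the sign turned, at 0.25, where the median of all genes was 0.27. The length offset put BECN1 at -0.06, 0.06 and -0.01 in the same order, each of the opposite sign and none called. BECN1 shares 300 exonic bases with PSME3, which had 348% of its counts, and 795 with CNTD1, at 1.35%, both on the opposite strand. WIPI1 ranged from 20.0 to 25.3 CPM, with overlap between all groups, and was not called, at 0.08, 0.04 and 0.12 in the same order (adjusted p = 0.594, 0.824 and 0.641). The offset gave it -0.11, 0.21 and 0.10, not called, the first of the opposite sign. WIPI1 shares 828 exonic bases with ARSG, which had 48.5% of its counts.

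TFEB, the transcription factor of lysosomal and autophagy genes, lies on chromosome 6 at 41683978 to 41736259, minus strand. It read 11.4 and 10.6 CPM in control, 11.99 and 11.4 CPM with SS, and 9.94 and 12.1 CPM with SS+NAC. All groups overlapped, and the log2 fold changes of 0.09, -0.08 and 0.01 were not called (edgeR adjusted p = 0.622, 0.632 and 0.991), nor were the -0.04, 0.03 and -0.01 with the length offset, each of the opposite sign. TFEB is controlled largely by phosphorylation and by moving between cytoplasm and nucleus, which transcript levels do not show.

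**Figure D3:**
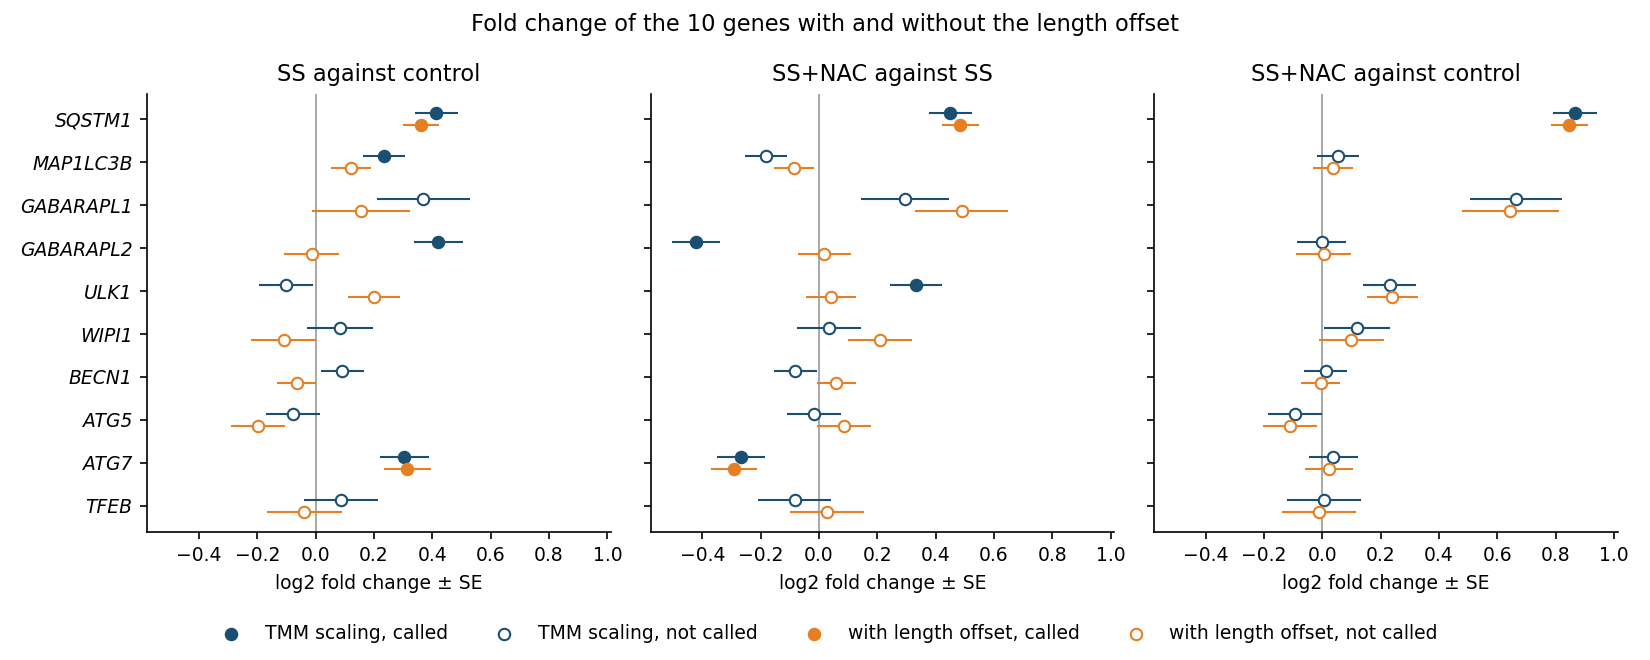
Log2 fold change ± SE (horizontal axis) of the 10 genes in the 3 comparisons, with TMM scaling (blue) and with the length offset (orange), filled where called. SQSTM1 is called with both in every panel, ATG7 with both in SS against control and in SS+NAC against SS, and GABARAPL2 moves to 0 with the offset.

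From SS to SS+NAC, SQSTM1 and ULK1 rose and GABARAPL2 and ATG7 fell, which makes 4 of the 10 called, with 5 at an unadjusted p under 0.05. Over all tested genes 42.7% were called, 23.1% higher and 19.6% lower, again near the share among the 10. The median log2 fold change was -0.05 for the 10 and 0.03 for all genes, and that of the 10 turned sign with the length offset, to 0.05. Length entered this comparison with the opposite sign, with a Spearman correlation of 0.64 over 14005 genes, and with the offset 14.4% of all genes and 2 of the 10, SQSTM1 and ATG7, were called. On TPM without centring, where the median of all genes was 0.27, the tally was 5 higher and 0 lower, SQSTM1, ULK1, GABARAPL1, BECN1 and ATG5, and on centred TPM 1 higher and 3 lower. The share of all genes called on TPM is again not given, and these tallies are not a result about autophagy genes. The SS libraries enter both this comparison and that of SS with control. By the DESeq2 Wald test 1 of the 10 rose and 3 fell. Of the epithelial markers KRT8, KRT18 and KRT7 fell in this comparison, also with the offset, and of the 4 mesenchymal markers 3 rose and VIM fell, with 2 of the 4 called with the offset.

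The comparison of SS+NAC with control asks what differed when NAC was given with selenite, and here SQSTM1 rose and 0 of the 10 fell. At an unadjusted p under 0.05 there were 3. Over all tested genes 2.01% were called, 1.36% higher and 0.657% lower, and the share was 2.01% as well with the length offset, by which SQSTM1 alone of the 10 was called. The correlation of fold change with length was -0.04. The DESeq2 Wald test and thinned counts each called 2 of the 10, SQSTM1 and GABARAPL1. The share of all genes called in those fits is not given here, so these counts are not a result about autophagy genes.

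The 10 genes were then set beside a wider list of 86 autophagy genes, the 10 included, of which 84 were tested. MAP1LC3A and ATG9B had too few reads. With SS 16 rose and 16 fell, with a median log2 fold change of 0.03, and from SS to SS+NAC 20 rose and 15 fell, with a median of 0.03. The shares called, 38.1% and 41.7%, lie near the 40.0% and 42.7% of all tested genes and are not a result about autophagy genes. The balance of directions hung on the scaling: on TPM without centring 2 rose and 34 fell with SS and 46 rose and 1 fell from SS to SS+NAC, while on centred TPM the counts were 31 and 7, then 7 and 28. These TPM counts stand without the share of all genes and are not a result about autophagy genes either. TPM without centring moved the median of all genes by -0.20, 0.27 and 0.04 in the 3 comparisons. With the length offset 7 genes were called with SS and 11 from SS to SS+NAC, and 3 and 8 of these were also called without it. These too are near the background, in which the offset left 9.23% and 14.4% of all genes called. Both counts changed with 1 library left out, which leaves a group of 1, and the share of all genes called in those fits is not given. Between SS+NAC and control SQSTM1 was the only one of the 84 called, 1.19% beside 2.01% of all genes and so near the background. At an unadjusted p under 0.05 there were 12. By the DESeq2 Wald test and on thinned counts 2 were called, and the share of all genes called in those fits is not given.

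**Figure D4:**
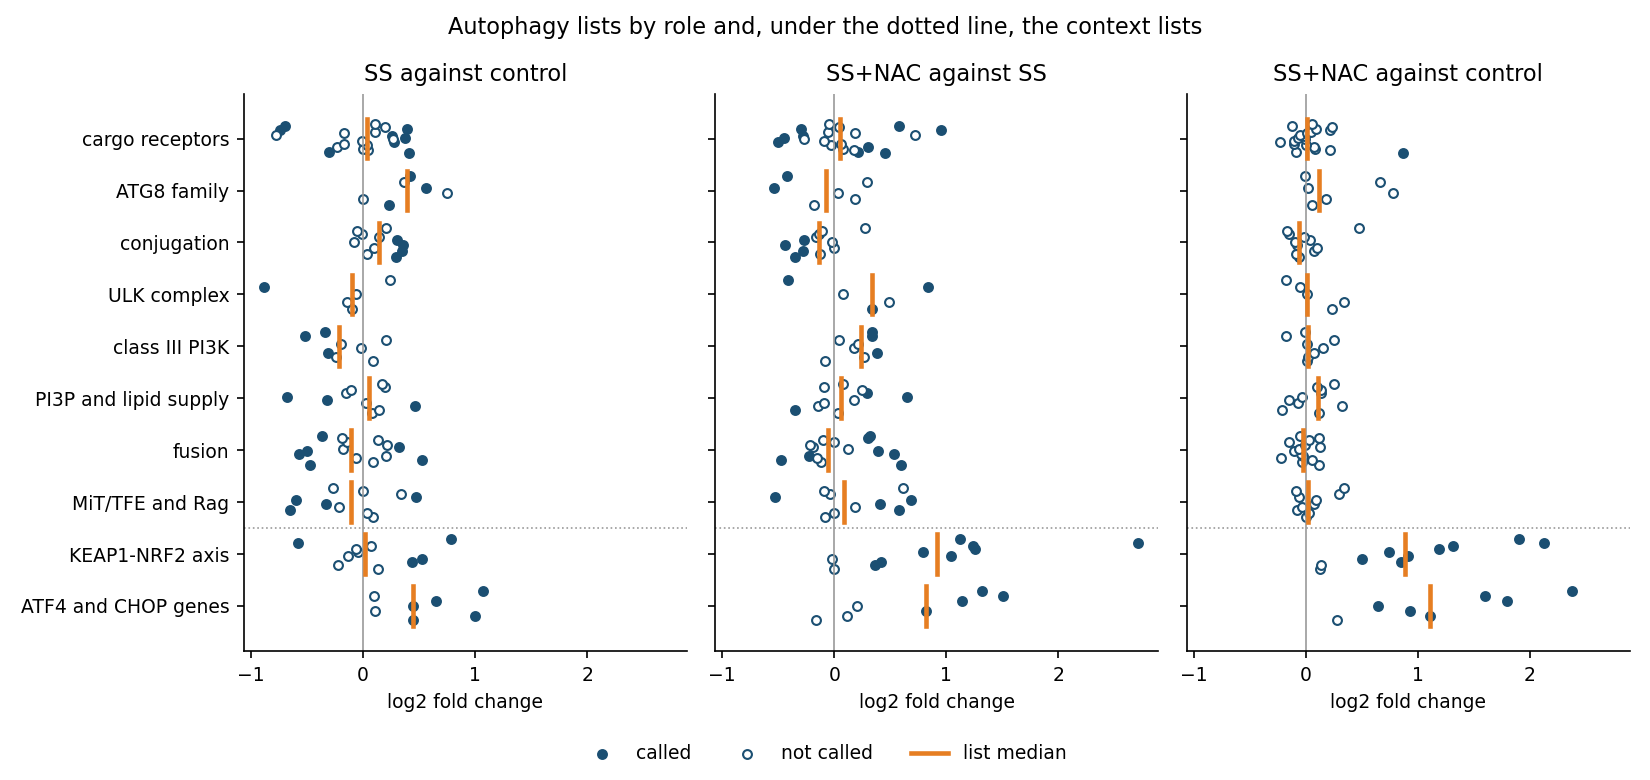
Log2 fold change (horizontal axis) of the tested genes of 8 autophagy lists by role and, under the dotted line, of the KEAP1-NRF2 and ATF4 lists, in the 3 comparisons; filled points are called genes and orange bars list medians. With SS the ATG8 list has a median of 0.39 and the PI3-kinase list one of -0.22 on TMM scaling, and with the length offset, not drawn, 0.11 and -0.02. Against control with SS+NAC the only filled point of the autophagy lists is SQSTM1.

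Of 20 cargo receptors, which tether proteins or organelles to LC3, 5 rose and 3 fell with SS, 40.0% as over all tested genes. The ER-phagy receptor TEX264, 1319 bases long, rose by 0.39 (SE 0.0873, edgeR adjusted p = 0.00542), and was at 0.04 with the length offset. The ER-phagy receptor CCPG1, 5060 bases, fell by 0.74 (SE 0.171, adjusted p = 0.00624), and the aggregate adaptor WDFY3 (ALFY), 13262 bases, fell by 0.70 (SE 0.0899, adjusted p = 0.000379). With the offset CCPG1 was at -0.45 and WDFY3 at -0.09, and SQSTM1 was the only receptor called. TEX264 and CCPG1 also lost their calls in fits with 1 library left out, which leave a group of 1. TEX264 was at 0.31 without SS replicate 2 and 0.32 without control replicate 1, and CCPG1 at -0.67 without SS replicate 2, none of these called. On TPM without centring TEX264 was at 0.12, not called.

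In the ATG8 family 3 of 6 tested genes rose with SS and 0 fell, by edgeR, with a median of 0.39 that came to 0.11 with the length offset. There were 4 at an unadjusted p under 0.05, and the DESeq2 Wald test, in which 4 of these genes had an adjusted p, also gave 3 higher and 0 lower. With 6 genes the share of 50.0% differs from the 40.0% of all genes by less than 1 gene. All 3 calls were rises, beside 18.6% of all genes called higher. The median length of these genes was 1152 bases, beside 3048 over all tested genes. GABARAP, at 874 bases, read 132 and 135 CPM in control, 193 and 203 CPM with SS, and 140 and 132 CPM with SS+NAC, the SS libraries standing above the other 4. It rose by 0.57 with SS (SE 0.0732, edgeR adjusted p = 0.000388) and was at 0.10 with the offset, not called. The offset ended the calls of MAP1LC3B and GABARAPL2 too. Among the 11 conjugation genes 4 rose with SS and 0 fell, where the tally at an unadjusted p under 0.05 was also 4. The share called was 36.4%, near that of all genes in either direction, while 18.6% of all genes were called higher. The 4 called genes were all rises. Besides ATG7 these included the ATG8-processing proteases ATG4D, at 0.36 (SE 0.109, adjusted p = 0.0246), and ATG4B, at 0.35 (SE 0.0817, adjusted p = 0.00656). With the offset they were at 0.15 and 0.19, not called, and the ATG4D call was lost without SS replicate 2 (0.24), control replicate 1 (0.32) or control replicate 2 (0.42), that of ATG4B without control replicate 1 (0.33). Both were lost on TPM without centring, ATG4D at 0.13 and ATG4B at 0.07. The DESeq2 Wald test called 3 of the 11, all higher, ATG4D not among them at 0.36.

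In the ULK complex 1 of 5 genes was called with SS, 20.0% beside 40.0% of all tested genes. It was RB1CC1 (FIP200), the scaffold that joins ULK1 to the growing membrane, which read 83.5 and 65.8 CPM in control, 39.1 and 41.7 CPM with SS, and 65.2 and 79.0 CPM with SS+NAC. Both SS libraries were below the other 4, which overlapped. It fell by 0.88 with SS (SE 0.124, edgeR adjusted p = 0.000545) and rose by 0.84 from SS to SS+NAC (SE 0.123, adjusted p = 0.000643). RB1CC1 is 6571 bases long, in the longest eighth, and with the length offset it was still called, at -0.47 and 0.44. Both calls held under 17 of 18 alternatives and were lost under Bonferroni. The other 4 genes of the complex, ULK1 among them, were not called with SS.

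Of the 8 genes of the PI3-kinase complexes and their regulators, 3 fell with SS and 0 rose, with 4 at an unadjusted p under 0.05 and the same counts by the DESeq2 Wald test. The share of 37.5% is near that of all genes in either direction, while 21.4% of all genes were called lower. The list median of -0.22 came to -0.02 with the length offset. RUBCN (Rubicon), an inhibitor of autophagosome maturation of 8344 bases, fell by 0.52 (SE 0.101, edgeR adjusted p = 0.00283), and AMBRA1, a Beclin 1 activator of 5194 bases, fell by 0.34 (SE 0.0813, adjusted p = 0.00746). With the offset they stood at -0.03 and -0.04, not called, and AMBRA1 was not called without SS replicate 1 (-0.30) or control replicate 2 (-0.31), nor on centred TPM (-0.20). Of the 10 tested PI3P effectors and lipid suppliers 1 rose and 2 fell, which is 1 gene from the 40.0% of all tested genes. With the length offset WIPI2, at 0.38, and TMEM41B, at 0.32, were called instead, both higher and neither called without it, at 0.14 and 0.17. WDR45 (WIPI4), of 1713 bases, rose by 0.47 (SE 0.115, adjusted p = 0.00873), while the lipid transfer proteins ATG2B, of 12172 bases, and ATG2A, of 6402 bases, fell by 0.68 (SE 0.0848, adjusted p = 0.000332) and 0.32 (SE 0.114, adjusted p = 0.0431). The offset brought WDR45 to 0.22, ATG2B to -0.09 and ATG2A to 0.07, of the opposite sign, none called. The WDR45 call was lost on TPM without centring, at 0.18. With 1 library left out, which leaves a group of 1, calls of both WDR45 and ATG2A were lost. WDR45 was then at 0.41 without SS replicate 2 and 0.46 without control replicate 2. ATG2A was at -0.24 without SS replicate 1, -0.42 without SS replicate 2 and -0.18 without control replicate 2. The ATG2A call was lost as well with no filter on low counts (-0.33), with the replicate block (-0.32) and on centred TPM (-0.18).

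Of 14 genes of autophagosome fusion 2 rose and 4 fell with SS, a share of 42.9% that is near that of all genes. The SNARE protein VAMP8, 755 bases long, rose by 0.53 (SE 0.0733, edgeR adjusted p = 0.000523), and the tether EPG5, 12350 bases long, fell by 0.57 (SE 0.0803, adjusted p = 0.000543). With the offset the values were 0.04 and 0.02, the latter of the opposite sign. SNAP29, at 0.30, and VPS33A, at 0.35, were called higher with the offset and not without it, at 0.08 and 0.14. The adaptor PLEKHM1 fell by 0.50 (SE 0.0940, adjusted p = 0.00232) and was at -0.20 with the offset and -0.25 on centred TPM, not called in either. VPS11, a HOPS tether subunit of 2922 bases, rose by 0.32 (SE 0.106, adjusted p = 0.0356) and was again at 0.32 with the offset, not called there, nor without SS replicate 1 (0.33), SS replicate 2 (0.30) or control replicate 1 (0.19), nor by the DESeq2 Wald test (0.32) or on TPM without centring (0.10).

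Around TFEB, 1 of 10 MiT/TFE factors and regulators rose and 3 fell with SS, again 40.0%, while the DESeq2 Wald test, with 9 of them tested, called 1 higher and 1 lower. The GTPase RRAGA, which brings mTORC1 to the lysosome, rose by 0.47 (SE 0.0736, edgeR adjusted p = 0.000870) at a length of 1648 bases. MITF, a relative of TFEB, fell by 0.65 (SE 0.177, adjusted p = 0.0137) at 4833 bases, and FNIP2, a folliculin partner, fell by 0.60 (SE 0.0819, adjusted p = 0.000504) at 5509 bases. With the offset the values were 0.21, -0.39 and -0.27, none of them called. RRAGA was not called on TPM without centring (0.19), and MITF was not called without SS replicate 1 (-0.62), SS replicate 2 (-0.69) or control replicate 1 (-0.50), by the DESeq2 Wald test (-0.65) or on centred TPM (-0.15). Between SS+NAC and control 0 of these 10 genes were called by edgeR, with 0 also at an unadjusted p under 0.05 and 0 by the DESeq2 Wald test. With 2.01% of all genes called there, a count of 0 among 10 is not a result about them.

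SQSTM1 is a known NRF2 target, and genes of that axis were examined as context. Whether NRF2 acted on SQSTM1 in these cells was not tested. With SS+NAC 8 of 10 KEAP1-NRF2 genes rose over control and 0 fell, by edgeR and by the DESeq2 Wald test, with 8 at an unadjusted p under 0.05 and a median log2 fold change of 0.88, beside 0.86 for SQSTM1. Over all tested genes 1.36% were called higher in this comparison. The list was chosen with earlier results of these data known, so its share is a description and not independent support. The rises ran from 2.13 for the cystine transporter SLC7A11 (edgeR adjusted p = 2.36e-06) and 1.90 for OSGIN1 (adjusted p = 4.03e-06) to 0.51 for NQO1 (adjusted p = 0.00727). Between these were SRXN1 at 1.31, TXNRD1 at 1.19, GCLM at 0.91, HMOX1 at 0.85 and GCLC at 0.75. With SS alone 3 rose and 1 fell, 40.0% as over all tested genes. HMOX1 rose by 0.43 (SE 0.0939, edgeR adjusted p = 0.00466) and was at 0.16, not called, with the length offset. OSGIN1 rose by 0.78 (SE 0.113, adjusted p = 0.000631), NQO1 rose by 0.53 (SE 0.0747, adjusted p = 0.000581), and SLC7A11 fell by 0.58 (SE 0.118, adjusted p = 0.00332), the last at -0.05 and not called with the length offset. OSGIN1 and NQO1 were called with it, at 0.59 and 0.47. Left-out libraries ended the SS+NAC call of NQO1, at 0.48 without control replicate 1 and 0.54 without control replicate 2, and that of GCLC, at 0.68 without control replicate 2. GCLC was also not called on TPM without centring, at 0.79. Under Bonferroni the SS+NAC calls of NQO1 and GCLC were lost, as were the SS calls of OSGIN1, NQO1 and SLC7A11.

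Of 7 genes of the ATF4 and CHOP stress response 6 rose and 0 fell in SS+NAC against control, with a median of 1.11, and the DESeq2 Wald test gave 7 and 0, as many as at an unadjusted p under 0.05 in edgeR, where 1.36% of all tested genes were called higher. They were DDIT4 at 2.38, CHAC1 at 1.80, SESN2 at 1.60, DDIT3 (CHOP) at 1.11, TRIB3 at 0.93 and ASNS at 0.65, with edgeR adjusted p from 2.36e-06 for SESN2 to 0.00154 for ASNS, which was not called under Bonferroni. With SS alone 5 of the 7 rose, a share of 71.4% beside 40.0% of all tested genes, among them DDIT4 by 1.07 (SE 0.180, adjusted p = 0.00132) and DDIT3 by 0.996 (SE 0.121, adjusted p = 0.000290). The SS calls of DDIT4 and DDIT3 were lost under Bonferroni. This list too was chosen with earlier results of these data known, so its shares are a description only. With the length offset 3 of the 7 were called, beside 9.23% of all genes, DDIT4 at 0.83 and DDIT3 at 0.57 among them, and the median went from 0.45 to 0.26.

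The genes whose profile over the 6 libraries was most like that of SQSTM1 were looked for among the 9526 genes averaging 10 CPM or more. Likeness was the root mean square difference of log2 CPM, each gene centred on its own mean. The nearest were HMOX1 (0.0623), XBP1 (0.0776), CEBPB (0.0828), EPHX1 (0.0894) and PCK2 (0.0973). HMOX1, heme oxygenase 1, read 17.4 and 15.7 CPM in control, 22.8 and 21.8 CPM with SS, and 29.1 and 30.7 CPM with SS+NAC, in the same order of groups as SQSTM1 and without overlap. This likeness was measured on CPM, without the length offset. HMOX1 is 1584 bases long, and its log2 fold changes of 0.43 with SS and 0.42 from SS to SS+NAC were 0.16 and 0.68 with the offset, the first not called, where SQSTM1 had 0.36 and 0.49. With genes from a mean of 1 CPM on, 12666 in all, HMOX1, XBP1 and CEBPB were again among the nearest 5, after or beside STAC3 and AREG.

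**Figure D5:**
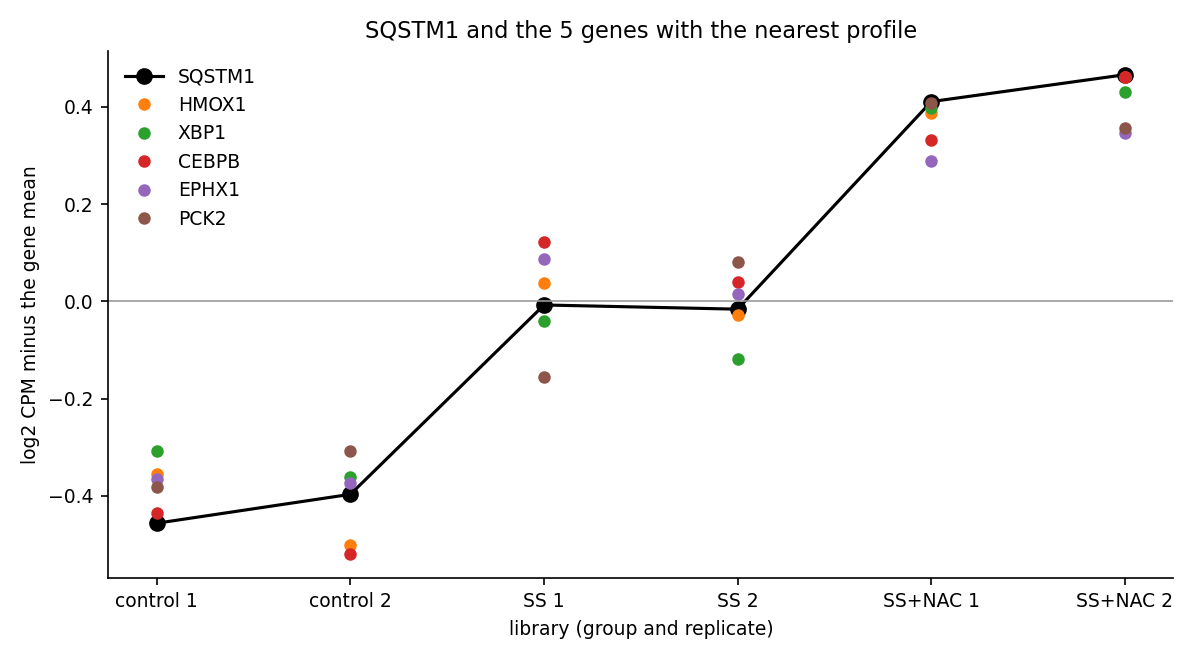
Centred log2 CPM (vertical axis) of SQSTM1 and its 5 nearest genes in the 6 libraries (horizontal axis). All 6 profiles are lowest in control and highest with SS+NAC, and HMOX1 lies closest to SQSTM1, at a root mean square difference of 0.0623.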

How the data were processed

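Total RNA from 2 biological replicates per group was enriched for poly(A), and reads of 50 bases were sequenced from a single end. The authors deposited, for each library, RSEM expected counts, TPM and FPKM per gene. The deposited log2 ratio, p-value and q-value columns of the authors' own comparisons and 9 group-mean columns were not used. The submitters' processing notes name HISAT2 2.0.4, Bowtie2 2.2.5 and RSEM 1.2.12. Strand use in counting was not stated. FPKM served only to derive effective lengths.

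Expected counts, of which 44.8% were not whole, were rounded, filtered with filterByExpr and scaled by TMM. All 6 libraries were fitted together with edgeR 4.0.16 (glmQLFit, glmQLFTest) in R 4.3.3, and p-values were adjusted by Benjamini-Hochberg over 14005 genes, with a threshold of 0.05. The common biological coefficient of variation was 6.74%. CPM used TMM-scaled library sizes. The length offset was a lowess curve (span 0.3) of each library's deviation from the gene mean on log2 length. Alternatives used DESeq2 1.42.0, limma 3.58.1 on log2(TPM + 1), other filters and scalings, a replicate block, thinned counts and each library left out in turn. Steps were tested on simulated data. Python 3.11.15, pandas 2.3.3, numpy 2.4.6 and matplotlib 3.10.9 were used for tables and figures.

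The 10 genes and all lists were chosen with earlier results of these data known. Named genes were the 10, of each other list up to 2 with the largest rise and 2 with the largest fall among those called between SS and control at a mean of at least 1 CPM, list genes called between SS+NAC and control, and the 5 genes nearest SQSTM1. Overlapping genes, FBXO31 and the like, were named for position. WIPI2, TMEM41B, SNAP29 and VPS33A were named as calls gained with the length offset in SS against control. Of the lists, 2 genes are not reported here and were left out of the counts. Protein blots, flow cytometry and animal experiments were not analysed here.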

Additional observations from a re-analysis of the deposited data

How the results depend on the processing

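With 2 libraries a group, small differences were hard to call, and with 1 left out the lone library is assumed to vary like the other groups. Libraries of a group varied beyond counting noise, by a chi-square per degree of freedom of 3.10 in control, 7.35 in SS and 12.2 in SS+NAC. Libraries with the same replicate number share only that number: over genes, the log2 difference between replicates 2 and 1 correlated at 0.11 between control and SS, -0.11 between control and SS+NAC and -0.17 between SS and SS+NAC. With replicate number as a block, the replicate block fit called 3, 4 and 1 of the 10 genes and 29, 33 and 1 of the 84 in SS against control, SS+NAC against SS and SS+NAC against control. Median-centred TPM was chosen after seeing the data.

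Of 1242 fold changes of single genes under an alternative, 1027 kept direction and side of the threshold. With the direction kept, 132 lost their call and 15 gained one. A further 68 changed sign, of which 64 belonged to the 10 genes. Of the 68, 11 were called as reported, 2 were called under the alternative and 0 in both. Where a count or a sign changed, the cause was not tested. The share of all genes called is given only for the main edgeR fit and that with the length offset. Counts under other settings are therefore not a result about autophagy genes.

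In SS against control, called genes among the 10 numbered 2 with the length offset, 1 with offset and replicate block, 0 with Bonferroni (5 at an unadjusted p under 0.05 in edgeR, 4 called by DESeq2) and 1, lower, on TPM, with 2 to 5 when 1 library was left out. Among the 84 they numbered 7, 4 and 0 (41 unadjusted, 29 by DESeq2), with 16 to 39. In SS+NAC against SS they were 2, 1 and 0 of the 10 (5 unadjusted, 4 by DESeq2), with 3 to 4, and 11, 7 and 0 of the 84 (43 unadjusted, 32 by DESeq2), with 22 to 39. In SS+NAC against control they were 2 by the DESeq2 Wald test and 2 on thinned counts, of the 10 and of the 84, with 1 to 2 and 1 to 4. With a minimum of 1 CPM, 3 of the 5 genes nearest SQSTM1 were shared.

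The signs that changed were these, as log2 fold changes. With SS against control the length offset gave GABARAPL2 -0.0133, ULK1 0.20, WIPI1 -0.11, BECN1 -0.0648, TFEB -0.0386, ATG2A 0.0720 and EPG5 0.0168, and with the replicate block -0.0132, 0.20, -0.11, -0.0650, -0.0382, 0.0736 and 0.0190. From SS to SS+NAC it gave GABARAPL2 0.0187, BECN1 0.0588, ATG5 0.0858 and TFEB 0.0272, with the block 0.0179, 0.0588, 0.0856 and 0.0257. Between SS+NAC and control it gave GABARAPL2 0.0054, BECN1 -0.0059 and TFEB -0.0115, with the block 0.0047, -0.0062 and -0.0126. TPM without centring gave MAP1LC3B -0.0425, WIPI1 -0.17, BECN1 -0.17, ATG7 -0.0647 and TFEB -0.17 with SS. From SS to SS+NAC it gave MAP1LC3B 0.15, BECN1 0.25, ATG5 0.30, ATG7 0.11 and TFEB 0.23, and GABARAPL2 0.0511 between SS+NAC and control. Centred TPM gave ULK1 0.0613 and ATG5 0.0695 with SS, WIPI1 -0.11 from SS to SS+NAC, and ATG7 -0.0180 and TFEB -0.0003 between SS+NAC and control. For that last comparison DESeq2 size factors gave BECN1 -0.0060 and TFEB -0.0125, the Wald test -0.0099 and -0.0173, and GABARAPL2 was 0.0073 with at least 10 counts per library, 0.0048 with the compared libraries alone and 0.0151 on thinned counts, which also gave TFEB -0.0401 and, from SS to SS+NAC, ATG5 0.0303.

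With 1 library left out, signs changed within these ranges. Between SS+NAC and control they were -0.0991 to 0.0880 for GABARAPL2, -0.0192 to 0.0441 for BECN1, -0.0114 to 0.0824 for ATG7, -0.15 to 0.14 for TFEB, -0.20 to 0.0053 for ATG5 and -0.0019 to 0.23 for WIPI1. From SS to SS+NAC they were -0.0838 to 0.15 for WIPI1, -0.12 to 0.0830 for ATG5 and -0.23 to 0.0540 for TFEB.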
